A study of Mus musculus with 8 samples.

Results

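The 10 genes described here are FOXO and glucocorticoid responsive genes, measured in glomeruli isolated from mouse kidneys: Depp1, Tsc22d3, Fkbp5, Sgk1, Txnip, Cited2, Foxo1, Foxo3, Irs2 and Sesn1. Each was represented by the probe set chosen by the highest mean log2 value over the 8 arrays among those with that symbol alone. All 10 symbols were found among 22180 genes. The genes themselves were listed with earlier results of these data in view. Their values and differences are therefore a description, and no p was adjusted over the list.

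All mice were 13 weeks old and had received doxycycline for 3 weeks from an age of 8 weeks. The 2 control arrays came from mice labelled control, whose alleles and later treatment the labels do not detail. The 3 Tln1 vehicle arrays and the 3 Tln1 VPA arrays came from Tln1 Pod-rtTA TetO-Cre mice that then received vehicle or valproic acid (VPA), an inhibitor of histone deacetylases, for 2 weeks. By its name, this line carries a doxycycline-driven Cre recombinase that acts in podocytes on Tln1, the gene of talin 1, which links integrins to actin. Podocytes are only some of the cells of a glomerulus, and no label ties an array to an animal of its own. The p values therefore reflect how far the samples spread, and part of that spread may be technical.

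FOXO transcription factors stay in the nucleus when insulin and growth factor signalling through PI3K and AKT is low, and are excluded from it when AKT phosphorylates them. There they switch on genes of nutrient sensing, stress defence and cell cycle arrest. Glucocorticoids act through the glucocorticoid receptor, a nuclear receptor that binds short palindromic elements and induces, among others, Tsc22d3, Fkbp5 and Sgk1. Glucocorticoids also raise the transcription of FOXO factors in several tissues, and Sgk1 phosphorylates FOXO proteins, so the pathways share genes. In the kidney, glucocorticoids are used to treat proteinuric disease, and Sgk1 is known for its control of sodium transport in the distal nephron.

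Promoter windows of 4 of the genes are shown: Depp1, on which the values below turn most, and the 3 genes with a match to the FOXO core or the glucocorticoid response element. They run 5′ to 3′ from 250 bases before to 50 bases after an annotated start and come from RefSeq, build GRCm38.p6. Capitals mark matches, and each position counts bases from the start to the first base of the match. The Depp1 window (chr6:116650434-116650733, plus strand) holds no match, the Txnip window (chr3:96557707-96558006, plus strand) holds a glucocorticoid response element at -172 and a FOXO core at -121. One of 6 Sgk1 windows (chr10:21993640-21993939, plus strand) holds a glucocorticoid response element at -188 and an E-box at -246, and one of 2 Sesn1 windows (chr10:41810324-41810623, plus strand) holds a FOXO core on the minus strand at 23 bases after the start.
Depp1: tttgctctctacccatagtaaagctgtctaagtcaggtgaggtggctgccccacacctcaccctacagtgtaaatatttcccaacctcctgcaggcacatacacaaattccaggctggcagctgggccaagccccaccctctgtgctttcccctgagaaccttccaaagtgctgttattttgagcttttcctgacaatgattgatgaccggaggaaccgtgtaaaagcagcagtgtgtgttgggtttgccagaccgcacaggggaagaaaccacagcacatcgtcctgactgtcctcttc
Txnip: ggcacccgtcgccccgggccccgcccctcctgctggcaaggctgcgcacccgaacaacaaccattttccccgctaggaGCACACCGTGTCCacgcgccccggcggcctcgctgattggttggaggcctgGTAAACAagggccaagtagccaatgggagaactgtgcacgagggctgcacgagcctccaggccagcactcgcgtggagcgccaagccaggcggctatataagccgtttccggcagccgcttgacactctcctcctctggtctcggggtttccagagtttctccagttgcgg
Sgk1: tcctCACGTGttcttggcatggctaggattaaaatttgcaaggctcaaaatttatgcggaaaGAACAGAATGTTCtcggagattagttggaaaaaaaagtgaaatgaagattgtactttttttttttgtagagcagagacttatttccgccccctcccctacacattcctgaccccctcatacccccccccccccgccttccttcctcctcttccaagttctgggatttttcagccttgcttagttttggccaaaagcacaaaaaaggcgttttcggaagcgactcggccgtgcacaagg
Sesn1: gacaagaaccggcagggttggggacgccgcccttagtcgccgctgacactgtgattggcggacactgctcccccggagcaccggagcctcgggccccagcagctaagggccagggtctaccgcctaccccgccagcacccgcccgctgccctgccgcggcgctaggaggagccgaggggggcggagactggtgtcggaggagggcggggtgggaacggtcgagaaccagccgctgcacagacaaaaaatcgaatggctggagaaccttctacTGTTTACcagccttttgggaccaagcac

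The motifs searched on both strands were the FOXO core GTAAACA, the glucocorticoid response element, with half-sites GNACA and TGTNC 3 bases apart, and the E-box CACGTG, and no matches overlapped one another. The FOXO core lay in a window of 2 of the 10 genes (Txnip and Sesn1), against 4.05% of 27025 genes with a window. The glucocorticoid response element lay in a window of 2 genes (Sgk1 and Txnip), against 0.537% of all genes. The E-box lay in windows of Fkbp5, Sgk1, Cited2 and Irs2, against 8.09% of all genes. The 10 genes had 18 windows in all, and a gene with more starts has more chances of a match. A match is a string of letters and was not tested as a binding site.

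By their correlation across genes the arrays split into 2 sets that cut across the groups. Control 2 and the arrays numbered 3 of both Tln1 groups made up the second set, and the other 5 arrays the first. Pairs of arrays from the same set correlated at 0.990 to 0.995, and pairs from different sets at 0.966 to 0.979. The mean of 6 measured podocyte markers was 7.09 to 7.88 on first-set arrays and 8.56 to 9.21 on second-set arrays, and that of 7 proximal tubule markers 11.95 to 12.22 and 11.07 to 11.67. Podocyte and tubule markers were thus both present on every array. The mean of 3 Y-linked genes was 4.85 to 7.00 on the first-set Tln1 arrays, 3.57 on control 1 and 2.56 to 2.72 on the second set. Within the first set, group and Y-linked signal therefore cannot be told apart in differences from control. With this mean as a covariate, the difference of Tln1 vehicle from control went from -0.38 to 0.13 for Sgk1. For Depp1 it went from -1.16 to -1.17. Tln1 stood at 8.80 ± 0.23 (SD, n = 2) in control, 8.83 ± 0.20 (n = 3) in Tln1 vehicle and 8.74 ± 0.14 (n = 3) in Tln1 VPA arrays. Whether its probes fall inside the deleted exons is not known here, so the level checks no label. In whole isolates, fewer cells of a type and less RNA per cell cannot be told apart.

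Depp1 was the gene of the list with the widest range. DEPP1 is a FOXO target that is also induced by progesterone in human endometrial stroma and has been linked to autophagy. Its log2 expression was 8.08 and 6.94 on the control arrays, 6.67, 6.0 and 6.40 on the Tln1 vehicle arrays, and 8.22, 7.55 and 7.63 on the Tln1 VPA arrays. All 3 Tln1 vehicle arrays lay below both control arrays, and all 3 Tln1 VPA arrays lay above all 3 Tln1 vehicle arrays. Tln1 VPA and control arrays overlapped. In Tln1 VPA against Tln1 vehicle the log2 difference was 1.45 (SE 0.33), which is 2.73-fold. It was 1.55 within the first set and 1.23 within the second, and lay between 1.24 and 1.60 with any single array of these groups left out. By size it ranked 8 of 22180 genes in that comparison. Depp1 was listed with earlier results of these data known, so this rank is a description and not independent evidence.

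Against control, Depp1 in Tln1 vehicle arrays was at -1.16 (SE 0.37) on the log2 scale. The control arrays differed from each other by about as much, with an SD of 0.80, so this value depends on which of them is kept. It was -0.59 without control 1 and -1.72 without control 2, and -1.74 and -0.55 within the first and second set. Depp1 in Tln1 VPA arrays differed from control by 0.29 (SE 0.37), a value that turned to -0.27 without control 2 and was 0.86 without control 1. These comparisons share the Tln1 vehicle or the control arrays and are not independent of one another.

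**Figure D1:**
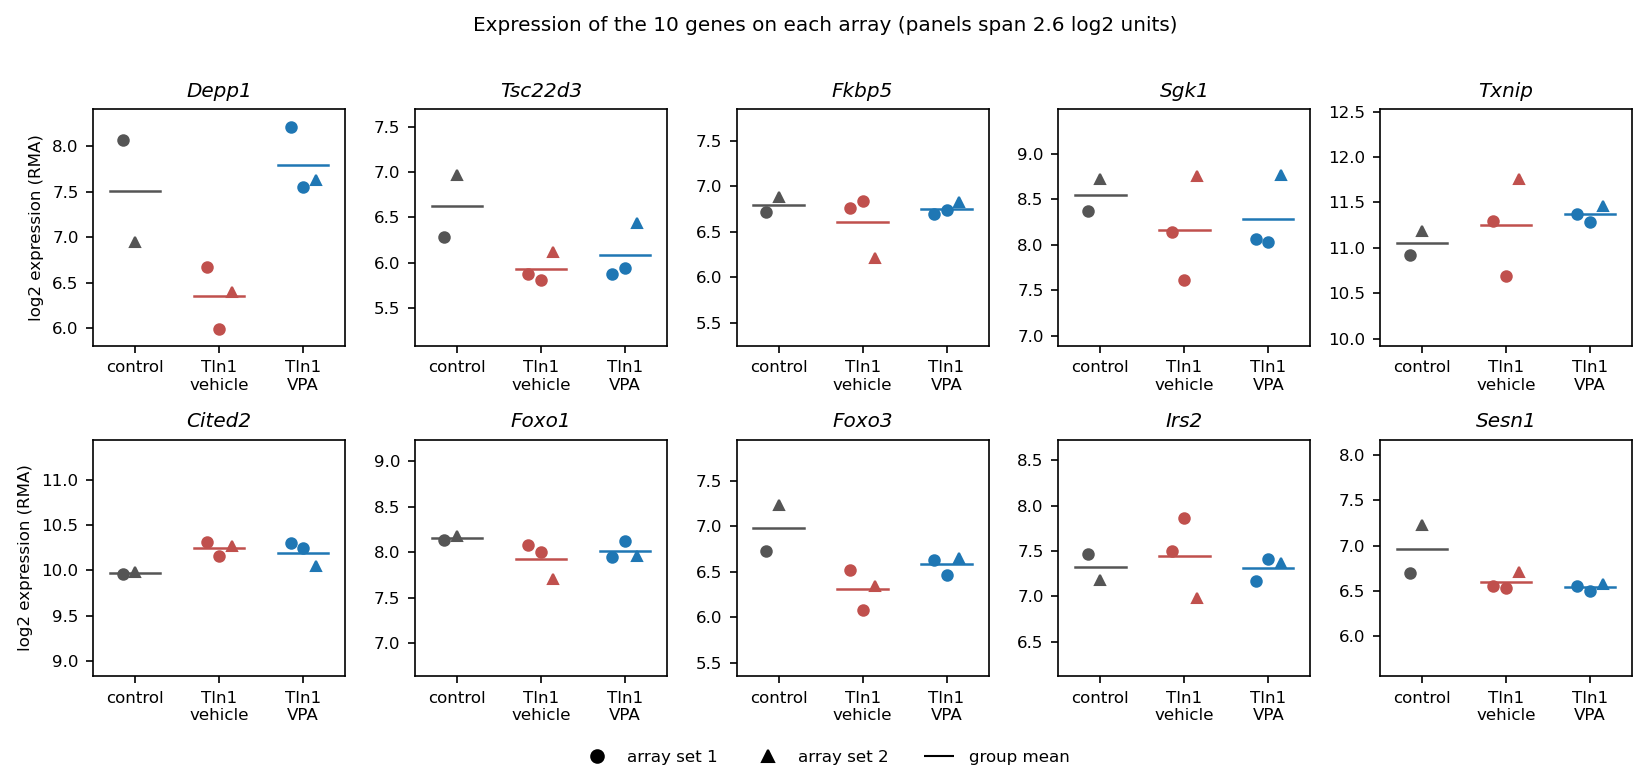
Log2 expression (RMA) of the 10 genes on each array, by group; circles are first-set and triangles second-set arrays, and lines are group means. Depp1 is lowest on the 3 Tln1 vehicle arrays (6.0 to 6.67), whereas Sgk1 is highest on the 3 second-set arrays (8.73 to 8.77), whatever their group.

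Of the 2 FOXO factors listed, Foxo3 had the wider differences between the groups. FOXO3 is the family member best known for stress resistance and for genes of autophagy and cell death. Foxo3 stood at 6.73 and 7.23 on control, at 6.52, 6.08 and 6.34 on Tln1 vehicle and at 6.63, 6.46 and 6.65 on Tln1 VPA arrays. All 6 Tln1 arrays lay below both control arrays, and the 2 Tln1 groups overlapped. The log2 difference was -0.67 (SE 0.19) in Tln1 vehicle against control, with -0.43 and -0.89 in the first and second set and -0.42 without control 2. It was -0.40 (SE 0.19) in Tln1 VPA against control, which went to -0.15 without control 2 and to -0.65 without control 1. Between the Tln1 groups it was 0.27 (SE 0.17), and 0.15 without Tln1 vehicle 2.

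Foxo1, the main FOXO factor of gluconeogenic tissue and endothelium, varied less. Its log2 values were 8.14 and 8.17 on control, 8.08, 8.00 and 7.70 on Tln1 vehicle, and 7.95, 8.12 and 7.96 on Tln1 VPA arrays. Every Tln1 array was below both control arrays, by as little as the gap between 8.12 and 8.14. The difference was -0.23 (SE 0.15) in Tln1 vehicle and -0.14 (SE 0.15) in Tln1 VPA arrays against control, and 0.08 (SE 0.13) between the Tln1 groups. Without Tln1 vehicle 3 the first of these values was -0.11 and the last -0.03.

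Cited2 encodes a transcriptional co-regulator that limits HIF-1 activity by competing for p300 and CBP. It stood at 9.97 and 9.98 on control, at 10.31, 10.16 and 10.27 on Tln1 vehicle and at 10.30, 10.25 and 10.04 on Tln1 VPA arrays. All 6 Tln1 arrays were above both control arrays. The log2 difference was 0.28 (SE 0.13) in Tln1 vehicle and 0.22 (SE 0.13) in Tln1 VPA arrays against control, and -0.05 (SE 0.11) between the Tln1 groups. Within the second set the difference of Tln1 VPA from control was 0.06.

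Sesn1 encodes sestrin 1, a stress-induced protein that restrains mTORC1. It was at 6.70 and 7.23 on control, 6.55, 6.53 and 6.71 on Tln1 vehicle, and 6.56, 6.50 and 6.57 on Tln1 VPA arrays. The Tln1 arrays lay close together, and control 2 alone stood apart above them. Tln1 vehicle 3 and control 1 overlapped by less than 0.01, while all Tln1 VPA arrays were below both controls. The log2 difference was -0.37 (SE 0.17) in Tln1 vehicle and -0.42 (SE 0.17) in Tln1 VPA arrays against control, and -0.11 and -0.16 when control 2 was left out. Without control 1 they were -0.63 and -0.68.

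Irs2 encodes insulin receptor substrate 2, which passes insulin receptor signals to PI3K and is itself switched on by FOXO in liver. Its log2 values were 7.47 and 7.19 on control, 7.50, 7.87 and 6.98 on Tln1 vehicle, and 7.17, 7.41 and 7.37 on Tln1 VPA arrays. The 3 groups overlapped, with both the highest and the lowest array in the Tln1 vehicle group. All 3 differences lay between -0.13 and 0.12.

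Tsc22d3, Sgk1 and Fkbp5 are the genes of the list named above as induced by the glucocorticoid receptor, and of these Tsc22d3 differed most from control. It encodes GILZ, a leucine zipper protein that carries part of the anti-inflammatory action of glucocorticoids. Tsc22d3 stood at 6.28 and 6.96 on control, 5.87, 5.81 and 6.12 on Tln1 vehicle, and 5.88, 5.94 and 6.44 on Tln1 VPA arrays. All 3 Tln1 vehicle arrays were below both controls, while Tln1 VPA 3 lay above control 1. The log2 difference was -0.69 (SE 0.25) in Tln1 vehicle against control, with -0.44 and -0.85 in the first and second set, -0.34 without control 2 and -1.03 without control 1. It was -0.53 (SE 0.25) in Tln1 VPA against control, which went to -0.19 without control 2 and to -0.88 without control 1. Between the Tln1 groups it was 0.15 (SE 0.22), and -0.03 without Tln1 VPA 3.

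Tsc22d3 also moved with the array sets. In each group its second-set array was the highest, and the second set was 0.48 (SE 0.08) above the first in a fit with group and array set. In that fit the difference of Tln1 vehicle from control was -0.61 (SE 0.11), with an adjusted p over all genes of 0.374 by limma.

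Sgk1, a kinase that glucocorticoids and aldosterone induce and that activates the epithelial sodium channel, moved with the array sets. It was at 8.38 and 8.73 on control, 8.14, 7.61 and 8.76 on Tln1 vehicle, and 8.06, 8.03 and 8.77 on Tln1 VPA arrays. The 3 second-set arrays were the 3 highest, within 8.73 to 8.77, and the second set was 0.68 (SE 0.14) above the first. Podocyte markers were higher and proximal tubule markers lower on the same 3 arrays. The mean of the loop, distal tubule and collecting duct markers was highest on the second-set array in Tln1 vehicle (10.51) and Tln1 VPA (10.13). In control it was not (10.07 against 10.13). The part of these markers in the Sgk1 values was not tested. The differences between groups were -0.38 (SE 0.36), 0.12 (SE 0.32) and -0.26 (SE 0.36) in Tln1 vehicle against control, Tln1 VPA against Tln1 vehicle and Tln1 VPA against control. Within the first set they were -0.50, 0.17 and -0.33, and within the second 0.03, 0.01 and 0.05. Leaving out Tln1 vehicle 2 gave -0.10 for the first and turned the second to -0.16.

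Fkbp5 encodes FKBP51, a co-chaperone of HSP90 that lowers the hormone affinity of the glucocorticoid receptor and is induced by it. It stood at 6.72 and 6.88 on control, 6.76, 6.84 and 6.21 on Tln1 vehicle, and 6.69, 6.73 and 6.82 on Tln1 VPA arrays. Of the 8 arrays, 7 lay between 6.69 and 6.88 and Tln1 vehicle 3 stood alone below them. The difference of Tln1 vehicle from control was -0.20 (SE 0.20) and 0.00 without that array. In Tln1 VPA against Tln1 vehicle it was 0.15 (SE 0.18), and -0.05 without that array.

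Txnip encodes the thioredoxin-interacting protein, an alpha-arrestin that restrains glucose uptake and is induced by glucose-sensing factors. It was at 10.92 and 11.18 on control, 11.29, 10.69 and 11.76 on Tln1 vehicle, and 11.38, 11.29 and 11.46 on Tln1 VPA arrays. The Tln1 vehicle arrays held both the lowest and the highest value, and all 3 Tln1 VPA arrays lay above both controls. The log2 difference was 0.32 (SE 0.28) in Tln1 VPA against control, 0.41 and 0.28 within the first and second set and 0.19 without control 1. It was 0.19 (SE 0.28) in Tln1 vehicle against control and 0.13 (SE 0.25) between the Tln1 groups.

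**Figure D2:**
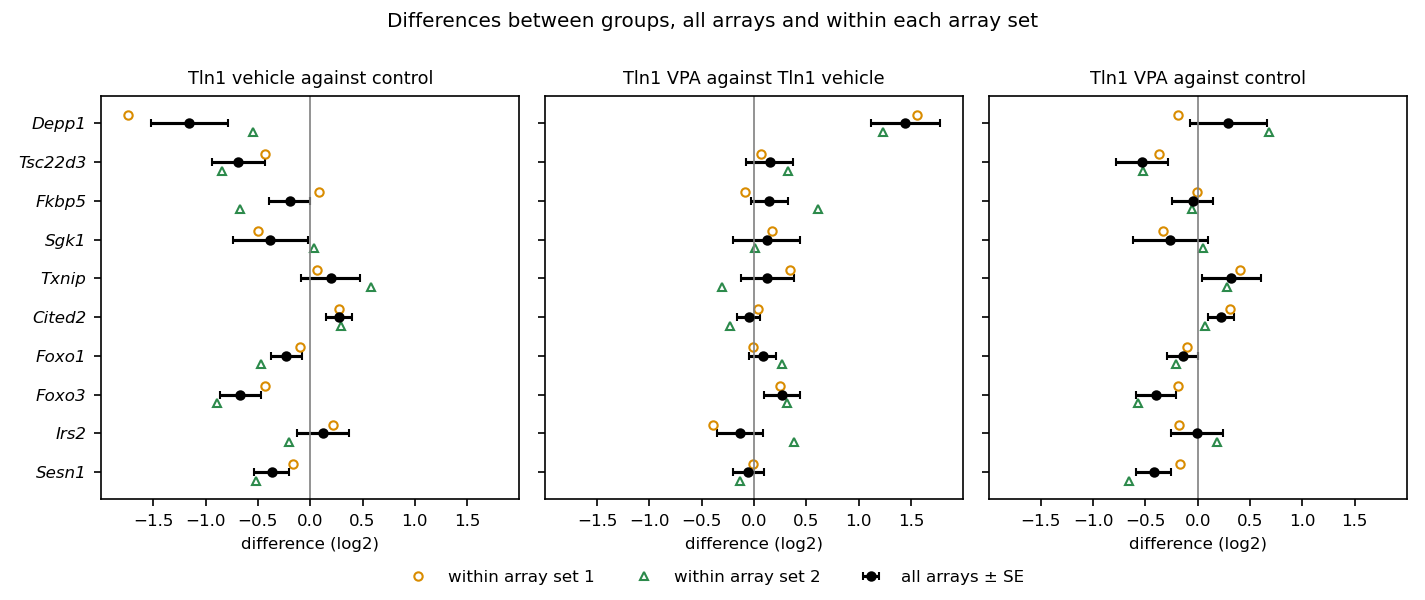
Log2 differences of the 10 genes in the 3 comparisons; black points are the fit over all arrays with its SE, open circles and triangles the differences within the first and second array set. Depp1 stands at 1.45 in Tln1 VPA against Tln1 vehicle, where the other 9 genes lie between -0.13 and 0.27.

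Across the list, 5 of the 10 genes had non-overlapping arrays in Tln1 vehicle against control, 4 lower (Depp1, Tsc22d3, Foxo1 and Foxo3) and 1 higher (Cited2). Over all 22180 genes the arrays of these groups did not overlap for 8.37%, 3.59% lower and 4.78% higher. The median difference of the 10 genes was -0.30, beside 0.02 over all genes. Between the Tln1 groups only Depp1 of the 10 had non-overlapping arrays, where 3.55% of all genes did, 1.98% higher and 1.57% lower, and the median was 0.12 beside 0.00. For Tln1 VPA against control 5 did, Foxo1, Foxo3 and Sesn1 lower and Txnip and Cited2 higher, where 9.55% of all genes did, 5.57% higher and 3.98% lower, and the median was -0.10 beside 0.02. The genes were listed with results known, so these counts are not independent evidence.

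None of the 10 genes passed the limma test over all genes in any of the 3 comparisons, with an adjusted p of 1.00 for each. In each comparison 0% of the 22180 genes passed. An unadjusted p below 0.05 was held by 322 genes in Tln1 vehicle against control, 280 in Tln1 VPA against Tln1 vehicle and 414 in Tln1 VPA against control, or 1.45%, 1.26% and 1.87%. In the list these were Depp1, Foxo3 and Tsc22d3 in the first, Depp1 in the second and Sesn1 in the third. As the genes were listed with results known, their number cannot be weighed against these shares.

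Beyond the 10 genes, 23 of 24 listed glucocorticoid receptor targets were measured and none was called. This list and those below were chosen with earlier results of these data known, so their counts are not independent evidence. Between Tln1 VPA and Tln1 vehicle the arrays did not overlap for 7 of the 23, all higher (Zbtb16, Mt1, Mt2, Pdk4, Angptl4, Cebpd and Cebpb), where 1.98% of all genes did so. The median of the 23 was 0.07 beside 0.00 over all genes, and 16 were above 0 and 7 below. In Tln1 vehicle against control, 3 did not overlap and were lower (Zbtb16, Klf15 and Angptl4), where 3.59% of all genes did so. Ddit4 was higher without overlap, where 4.78% of all genes were. The median there was -0.20 beside 0.02 over all genes, with 15 below 0 and 8 above. Both comparisons use the same Tln1 vehicle arrays. In Tln1 VPA against control Pdk4, Cebpd and Ddit4 were higher and Klf15, Angptl4 and Lpin1 lower without overlap, 6 of 23 where 9.55% of all genes did not overlap, with a median of -0.00 beside 0.02.

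Of these genes, Zbtb16, Angptl4, Cebpd, Cebpb, Klf15 and Per1 are named after their values were seen. Zbtb16 encodes the zinc finger repressor PLZF, a strongly glucocorticoid-induced gene. It was at 7.69 and 8.10 on control, 6.57, 5.47 and 6.49 on Tln1 vehicle, and 7.02, 7.31 and 8.25 on Tln1 VPA arrays. The Tln1 vehicle arrays lay below all 5 others. Its log2 difference was -1.71 (SE 0.44) in Tln1 vehicle against control, with -1.67 and -1.60 within the first and second set. In Tln1 VPA against Tln1 vehicle it was 1.35 (SE 0.39), with 1.14 and 1.76 within the sets.

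Angptl4 encodes a secreted inhibitor of lipoprotein lipase that podocytes also make in glucocorticoid-sensitive proteinuria. It stood at 6.94 and 7.07 on control, 6.42, 5.68 and 5.44 on Tln1 vehicle, and 6.92, 6.61 and 6.93 on Tln1 VPA arrays. Again the Tln1 vehicle arrays lay below all others, with a difference of -1.16 (SE 0.28) from control and of 0.98 (SE 0.25) in Tln1 VPA against Tln1 vehicle. Both differences kept their direction within each set, at -0.89 and -1.64 and at 0.72 and 1.49.

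Pdk4, a kinase that blocks glucose oxidation in mitochondria, was at 6.87 and 7.21 on control, 7.82, 6.67 and 7.31 on Tln1 vehicle, and 8.07, 7.86 and 8.00 on Tln1 VPA arrays. The Tln1 VPA arrays lay above all others, by 0.71 (SE 0.27) over Tln1 vehicle and 0.94 (SE 0.30) over control. The first value was 0.41 without Tln1 vehicle 2. Cebpd, a transcription factor of the acute phase response, had Tln1 VPA arrays above all others too, at 5.03, 5.11 and 4.89 against 3.97 to 4.59, though its mean of 4.57 was under the median gene mean of 4.92. Cebpb, its relative, differed by 0.34 (SE 0.12) between the Tln1 groups.

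Klf15, a Krüppel-like factor of podocyte differentiation that glucocorticoids induce, differed by -0.66 (SE 0.23) in Tln1 vehicle and by -0.60 (SE 0.23) in Tln1 VPA arrays from control. The second value was -0.90 within the first set and -0.13 within the second. Per1, a clock gene with a glucocorticoid response element, spread from 7.01 to 9.20 within the Tln1 vehicle group alone. Pck1, the gluconeogenic enzyme, and Anxa1, annexin A1, were at -0.84 (SE 0.58) and 0.73 (SE 0.50) in Tln1 VPA against control, with overlapping arrays. Without Tln1 VPA 3, the only second-set array of its group, they were at -0.25 and 0.29. Within the first and second set Pck1 was at -0.53 and -1.75, and Anxa1 at 0.70 and 1.19.

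**Figure D3:**
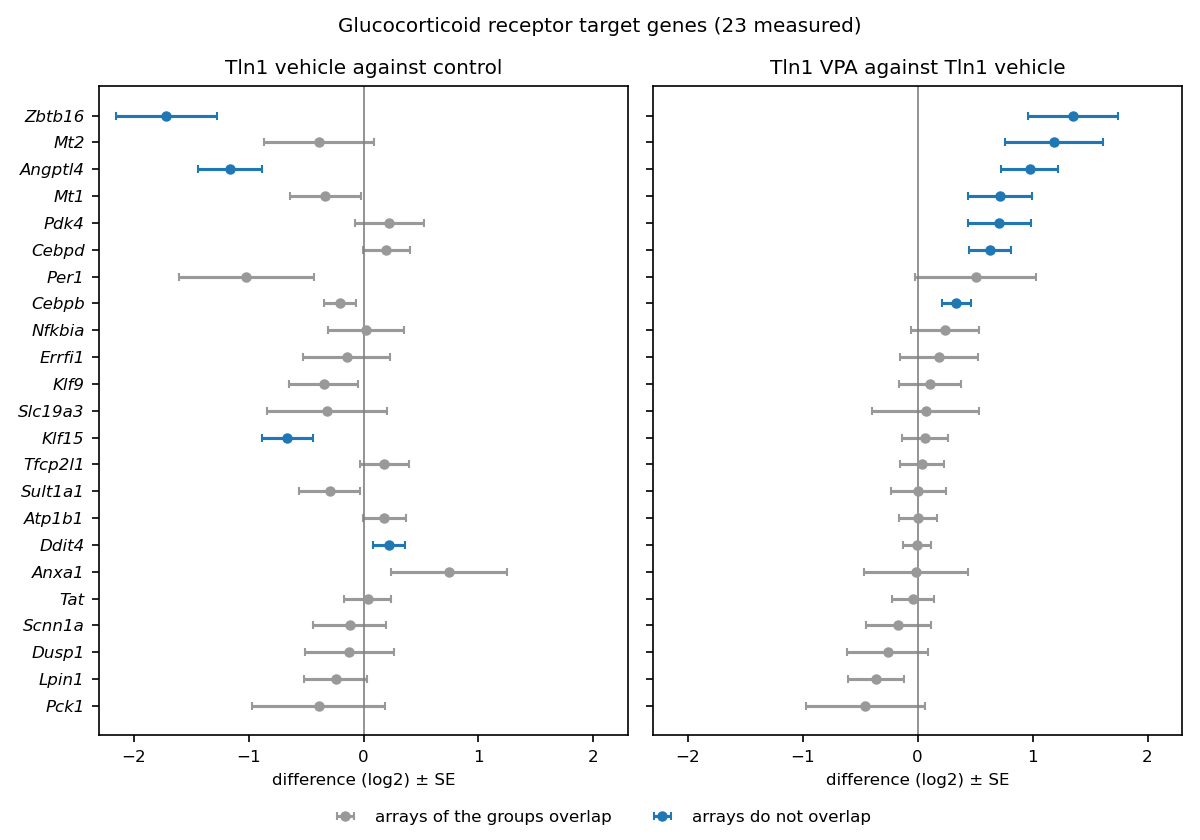
Log2 differences with SE of the 23 measured glucocorticoid receptor targets in Tln1 vehicle against control and Tln1 VPA against Tln1 vehicle, which share the Tln1 vehicle arrays; blue marks genes with no overlap between the arrays of the groups compared. In the second panel 7 genes are blue, from 0.34 for Cebpb to 1.35 for Zbtb16.

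The receptors showed small differences. Nr3c1, the glucocorticoid receptor, stood between 7.85 and 8.27 on all 8 arrays, with differences of 0.16 (SE 0.18), -0.05 (SE 0.16) and 0.11 (SE 0.18) in the 3 comparisons. Nr3c2, the mineralocorticoid receptor, stood between 6.41 and 6.91, with its 3 highest values on the second-set arrays. Hsd11b2, which inactivates corticosterone in aldosterone target cells, was at 11.15 and 11.07 on control, 11.19, 11.19 and 11.61 on Tln1 vehicle, and 11.16, 11.19 and 11.23 on Tln1 VPA arrays. The Tln1 vehicle difference of 0.22 (SE 0.15) was 0.08 without Tln1 vehicle 3. Of the 9 measured genes of this list none was called, and 1, 0 and 3 did not overlap in the 3 comparisons, beside 8.37%, 3.55% and 9.55% of all genes. The receptor chaperone Hsp90aa1 was at 0.30 (SE 0.21) and the coactivator Ncoa2 at -0.09 (SE 0.12) in Tln1 VPA against control, and without control 2 they were at 0.14 and -0.02.

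Of 29 listed FOXO targets outside the 10 genes, 28 were measured and none was called. Between Tln1 VPA and Tln1 vehicle 0 of 28 had non-overlapping arrays, where 3.55% of all genes did, with a median of -0.02 beside 0.00. In Tln1 vehicle against control this held for 1 of the 28, where 8.37% of all genes did. It was Gadd45b, a stress sensor, at 0.89 (SE 0.36) and at 0.51 without Tln1 vehicle 3, and its values were 6.42 and 6.69 on control and 7.18, 6.96 and 8.22 on Tln1 vehicle arrays. In Tln1 VPA against control it held for 5 of the 28, Gadd45b and Trib1 higher and Fbxo32, G6pc and Rbl2 lower, where 9.55% of all genes did, with a median of -0.08 beside 0.02. Fbxo32 and Rbl2 are named after their values were seen. G6pc, the last enzyme of gluconeogenesis, was lower on every Tln1 VPA array than on both controls, at -0.81 (SE 0.43), and at -0.52 without Tln1 VPA 3. It was higher on first-set than on second-set arrays within each group. Trib1, a pseudokinase, was at 0.34 (SE 0.19) in the same comparison and at 0.15 without control 1. Igfbp1, an insulin-like growth factor binding protein, was at -0.36 (SE 0.38), but at 0.26 without control 1 and at -0.97 without control 2.

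Of 21 measured genes of insulin, PI3K and AKT signalling upstream of FOXO, none was called. Tsc2, which restrains mTORC1 with Tsc1, stood at 8.83 and 8.90 on control, 8.62, 8.62 and 8.73 on Tln1 vehicle, and 8.42, 8.61 and 8.45 on Tln1 VPA arrays. The 3 groups did not overlap, with control highest and Tln1 VPA lowest, and the difference of Tln1 VPA from control was -0.37 (SE 0.12). Among the Sgk1 relatives, Sgk2 was lower on all Tln1 arrays than on both controls, at -0.26 (SE 0.15) in Tln1 vehicle and -0.23 (SE 0.15) in Tln1 VPA. The first value was -0.14 without Tln1 vehicle 3. Sgk3 and the deacetylase Sirt1 were at 0.25 (SE 0.32) and 0.23 (SE 0.26) in Tln1 VPA against control, and Sgk3 was at -0.05 without control 2 and Sirt1 at 0.05 without Tln1 VPA 1. In Tln1 vehicle against control 5 of the 21 genes did not overlap, in Tln1 VPA against Tln1 vehicle 1, and in Tln1 VPA against control 2. These are 23.8%, 4.76% and 9.52% of the list, beside 8.37%, 3.55% and 9.55% of all genes.

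Beside Txnip, the 10 listed glucose-sensing factors, alpha-arrestins and thioredoxin genes were all measured, with none called. Arrdc4, an alpha-arrestin that glucose-sensing factors induce along with Txnip, was at 7.48 and 7.63 on control, 7.57, 7.45 and 8.07 on Tln1 vehicle, and 7.97, 7.86 and 8.13 on Tln1 VPA arrays. As for Txnip, all Tln1 VPA arrays were above both controls, by 0.43 (SE 0.20), where 5.57% of all genes were higher without overlap. Thioredoxin, Txn1, differed by 0.48 (SE 0.51), its reductase Txnrd1 by 0.29 (SE 0.28) and the glucose-sensing factor Mlxipl by 0.27 (SE 0.27). These values moved when a control array was left out: without control 2, Txn1 was at 0.05 and Txnrd1 at 0.09, and without control 1 Mlxipl was at -0.15. Of the 14 paralogues of the 10 genes, all were measured and none was called. Arrays did not overlap for 1, 0 and 3 of these 14 in the 3 comparisons, and for 0, 0 and 1 of the 10 listed beside Txnip. The shares over all genes were 8.37%, 3.55% and 9.55%. Tsc22d1, the relative of Tsc22d3, spread from 7.46 to 9.01 and had its 3 highest values on the 3 second-set arrays.

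The genes whose values over the 8 arrays were most like those of Depp1 were Igfbp3, Mt2, Plvap, Mt1 and Stra6. Likeness was the root mean square difference between log2 values, each gene centred on its mean, over 11080 genes above the median level. It was 0.26 for Igfbp3, 0.37 for Mt2, 0.41 for Plvap, 0.41 for Mt1 and 0.45 for Stra6, and 0.68 to 0.86 for the other 9 genes of the list. Of the list, Foxo3 was the nearest to Depp1. Depp1 itself spread by 0.75 around its mean in the same measure, which is the likeness that a gene with the same value on every array would have.

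Igfbp3, a binding protein that carries insulin-like growth factors, was at 8.11 and 7.24 on control, 7.05, 6.43 and 7.02 on Tln1 vehicle, and 8.12, 7.51 and 7.52 on Tln1 VPA arrays. As for Depp1, the Tln1 vehicle arrays lay below all others, and control 1 and Tln1 VPA 1 were the highest. The 5 genes were chosen for likeness to Depp1 over these same arrays, so a shared pattern follows from the choice. The values of Igfbp3 and of those that follow are therefore a description. The Igfbp3 difference was 0.88 (SE 0.29) in Tln1 VPA against Tln1 vehicle and -0.84 (SE 0.32) in Tln1 vehicle against control. The second value was -0.41 without control 1 and -1.27 without control 2. Mt2 and Mt1 encode metallothioneins, zinc-binding proteins that glucocorticoids and metals induce. They differed by 1.19 (SE 0.43) and 0.72 (SE 0.28) between the Tln1 groups, with each Tln1 VPA array above each Tln1 vehicle array. Within the second set these values were 0.60 and 0.26. Plvap, a diaphragm protein of fenestrated endothelium, was at 10.03 on control 1 but at 8.07 on control 2, and differed by 0.85 (SE 0.51) between the Tln1 groups, 0.53 without Tln1 vehicle 2. Stra6, a receptor for retinol-binding protein, differed by 0.52 (SE 0.21).

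**Figure D4:**
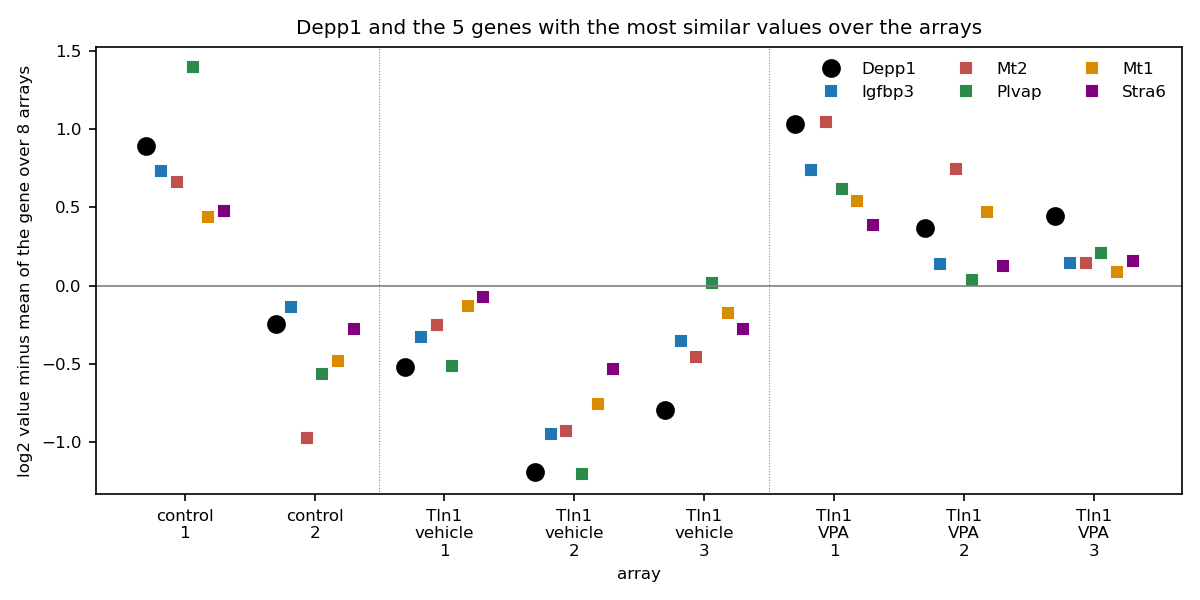
Log2 values of Depp1 and the 5 genes most like it, each minus its mean over the 8 arrays, on every array (points are offset sideways within an array for legibility). The 5 genes were chosen for this likeness, so the shared pattern follows from the choice. All 6 genes lie above their mean on control 1 and on the 3 Tln1 VPA arrays, and below it on control 2 and on Tln1 vehicle 1 and 2.

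Markers of cell types also had differences between the Tln1 groups, though none was called. All 8 glomerular endothelial markers were lower in Tln1 VPA than in Tln1 vehicle by their means (median -0.46) and all 8 macrophage markers were higher (median 0.37). The macrophage markers averaged 4.73 to 5.40 over the Tln1 vehicle and 4.94 to 5.97 over the Tln1 VPA arrays. The endothelial ones averaged 9.18 to 10.11 and 9.05 to 9.30. Only 5 of the 8 macrophage markers had a mean above the median gene mean. All 6 measured podocyte markers were lower too (median -0.34), as were 6 of 7 mesangial and smooth muscle markers (median -0.24). So were 6 of 7 proximal tubule markers (median -0.07) and 7 of 8 of loop, distal tubule and collecting duct (median -0.16). The median over all genes was 0.00. The array means of each of these marker lists overlapped between the groups. Of the single markers, Kdr and Ehd3 of endothelium and Itga8 and Pdgfrb of mesangium were lower and Cd68 of macrophages was higher without overlap. Over all genes 1.57% were lower and 1.98% higher without overlap. The part of these markers in the differences of Depp1, Zbtb16, Angptl4, Mt1 and Mt2 was not tested. The mesangial and smooth muscle markers averaged 6.76 to 6.96 on control and 7.13 to 7.61 on the Tln1 arrays. In Tln1 vehicle against control all 7 of them were higher (median 0.40), as were 7 of 8 endothelial markers (median 0.39). Medians were -0.08 for podocyte, -0.13 for proximal tubule, -0.07 for loop, distal tubule and collecting duct and -0.06 for macrophage markers, beside 0.02 over all genes. The part of these markers in differences from control was not tested.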

How the data were processed

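The labels' protocols describe total RNA of isolated glomeruli, labelled as biotinylated cRNA for Affymetrix arrays, 1 per sample. Per the submitters' processing notes the authors used RMA, whose output is on a log2 scale, and limma. What versions they ran is not given in the sources used here. Values of the 41345 probe sets lay between 1.49 and 13.9, and precision is limited by how few arrays there are.

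Of the probe sets, 23521 had 1 gene symbol, 1814 several and 16010 none in the platform annotation, and 23328 matched the gene table by Entrez identifier. One probe set per gene left 22180 genes. Differences, SEs and Benjamini-Hochberg adjusted p values came from 1 limma fit with group as the only term over all 8 arrays (limma 3.58.1, R 4.3.3, two-sided, threshold 0.05). The fit was tested on simulated arrays with independent noise and no array sets, so that test does not cover the array sets seen here. Lists are described by counts and medians without a test.

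The members, lists and alternatives were chosen with earlier results of these data known. Named by rule were the 10 genes, Nr3c1, Nr3c2, per list up to 4 genes above the median gene mean with the largest difference in Tln1 VPA against control, and the 5 genes most like Depp1. Deviations from the group mean correlated between Tln1 vehicle and Tln1 VPA arrays of the same number (r = 0.570, 0.609 and 0.787 over all genes). In both groups array 3 was in the second array set and arrays 1 and 2 in the first. Arrays of unlike number were not compared, so pairing and array set cannot be told apart in these values. The blocked alternative treated arrays of the same number as pairs, although no label states a pairing. Plots used matplotlib 3.10.9 (Python 3.11.15).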

Additional observations from a re-analysis of the deposited data

How the results depend on the processing

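By limma, 0 of the 10 genes were called in each comparison under each of the 16 or 17 alternatives, and the lowest adjusted p of any of them was 0.255. These alternatives averaged the probe sets of each gene, tested all probe sets singly, dropped genes under the median level, centred or quantile-normalised arrays, used trended and robust eBayes, kept only the 2 groups compared or the first array set, added the array set or the replicate number as a block or a Y-linked covariate, or left out each array in turn. The Y-linked covariate, the mean of Kdm5d, Uty and Eif2s3y, was added after the data were seen. Over all genes, 0 were called in each comparison, with these exceptions. With the replicate block 4 genes were called in Tln1 vehicle against control and 1 in Tln1 VPA against control. No label pairs these arrays, and control 2 and the Tln1 arrays numbered 2 lie in different array sets. Deviations of arrays of the same number correlated at r = 0.609 and -0.591 for control and Tln1 vehicle. For control and Tln1 VPA r was 0.593 and -0.496. With 2 control arrays, their deviations from the group mean are mirror images. An r with control 2 is therefore minus the r of control 1 with the same Tln1 array, and its sign does not show whether arrays pair. In Tln1 VPA against Tln1 vehicle the replicate block called 0 genes and changed no call. With the Y-linked covariate 21 genes were called in Tln1 VPA against control. The cause was not tested. Leaving out single arrays gave 0 called genes each time. With the array set as a block the median residual SD went from 0.214 to 0.123.

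Depp1 kept its direction in Tln1 VPA against Tln1 vehicle under all 17 alternatives. As its arrays in these groups did not overlap, leaving out arrays or keeping the first set alone could not turn the sign. Several other alternatives, such as trended and robust eBayes or the array set as a block, leave the difference at 1.45. The kept direction is therefore not separate evidence. In that comparison the sign turned under at least 1 alternative for 8 of the 10 genes, all but Depp1 and Foxo3. In Tln1 vehicle against control it turned for Fkbp5, Irs2, Sgk1 and Txnip, and in Tln1 VPA against control for Depp1, Fkbp5, Irs2 and Sgk1. With 2 control arrays, every difference from control rests on a pair of values.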

Other observations

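Foxo1 had a second probe set with 1 symbol that was not used because its mean was lower. It stood at 6.13 and 5.68 on control, 5.66, 5.91 and 5.66 on Tln1 vehicle, and 5.97, 5.52 and 5.83 on Tln1 VPA arrays. Its groups overlapped in all 3 comparisons, whereas the Foxo1 probe set described above had every Tln1 array below both controls.

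A probe set that the platform annotation assigns to both Txnip and Gm15441 lay between 4.64 and 5.54. It was lowest on control 2 and highest on Tln1 VPA 1, and since it names several genes it gives no value for Txnip.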
